A study of Homo sapiens with 30 samples.

Results

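The interval described here is a 100-kb stretch of chromosome 9, hg19 chr9:139525001-139625000, that begins next to the CTCF site S4 and runs toward the telomere, on the side of S4 away from NOTCH1. It is named for the genes EGFL7, AGPAT2 and DIPK1B. Its members were the restriction fragment ends whose position lies in that range, with ends within 5 kb of a table's own viewpoint left out. There were 319 such ends among the 382657 chromosome 9 ends of the promoter tables, 357 of 429740 in the S2 tables and 332 of 428705 in the S4 tables. At S4, 19 further ends were masked because they lay within 5 kb of the viewpoint. The choice of members used position alone, although the interval itself was singled out after its values had been seen.

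The 30 libraries are 4C-seq libraries of K562, a human leukaemia cell line. In 4C-seq, chromatin is cross-linked, cut and religated, and the fragments that became joined to 1 chosen fragment, the viewpoint, are sequenced, so that reads at a fragment end follow how often that place was near the viewpoint. The 3 viewpoints were the NOTCH1 promoter at 139443268, the CTCF site S2 at 139385872 and the CTCF site S4 at 139523746. At each viewpoint there were 2 libraries of unedited cells (WT) and 2 each of cells mutated at S2, at S4, at S5, or at both S4 and S5 (S4-S5 mutant), all in K562 with no treatment named. The kind of mutation, the position of S5 and whether a mutant line is 1 clone are not given in the labels. The comparisons ask whether loss of a CTCF site changed how the promoter, S2 and S4 contacted the interval.

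CTCF binds DNA at a long motif, and pairs of bound sites that face each other often form the base of a chromatin loop, because cohesin extruding a loop halts there. Such sites separate neighbouring domains, within which contacts are more frequent than between them, and removal of a site can let contacts pass into the next domain. NOTCH1 encodes a receptor of the Notch pathway. EGFL7 encodes a secreted protein of endothelial cells and hosts the microRNA gene MIR126, AGPAT2 encodes an enzyme that acylates lysophosphatidic acid in the synthesis of glycerolipids, and DIPK1B encodes a member of a family of kinase-like proteins. In the RefSeq annotation of GRCh38.p14, the order from NOTCH1 toward the telomere runs over LINC01451 and LNCEGFL7OS to EGFL7, MIR126, AGPAT2 and DIPK1B, and then SNHG7 and the lipocalin genes LCN10, LCN6, LCN8 and LCN15. No annotation in hg19 coordinates was used, so fragment ends and bins are given by position and were not assigned to genes, exons, introns or UTRs. 4C-seq does not measure expression, so the identity of the cells was not checked against markers.

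The promoters of the 3 genes that name the interval are shown because 4C with the enzyme DpnII can report a place only through the nearest DpnII site, whose sequence is GATC. They come from RefSeq (GRCh38.p14), each from 250 bases before to 50 after the start of a gene, on the strand of the gene, with 2 entries for EGFL7. CATG, the site of the enzyme NlaIII, is in capitals.
EGFL7 entry 1: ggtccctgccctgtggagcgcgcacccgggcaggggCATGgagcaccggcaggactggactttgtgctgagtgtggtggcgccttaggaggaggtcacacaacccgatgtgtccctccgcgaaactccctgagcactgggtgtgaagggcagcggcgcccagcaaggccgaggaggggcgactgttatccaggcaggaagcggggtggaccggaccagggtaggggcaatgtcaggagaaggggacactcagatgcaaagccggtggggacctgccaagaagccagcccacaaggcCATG
EGFL7 entry 2: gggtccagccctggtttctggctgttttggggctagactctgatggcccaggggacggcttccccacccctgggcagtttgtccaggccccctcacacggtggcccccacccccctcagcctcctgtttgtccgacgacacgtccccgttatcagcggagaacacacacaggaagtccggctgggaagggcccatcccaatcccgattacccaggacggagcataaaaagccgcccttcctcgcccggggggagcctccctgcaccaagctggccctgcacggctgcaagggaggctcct
AGPAT2: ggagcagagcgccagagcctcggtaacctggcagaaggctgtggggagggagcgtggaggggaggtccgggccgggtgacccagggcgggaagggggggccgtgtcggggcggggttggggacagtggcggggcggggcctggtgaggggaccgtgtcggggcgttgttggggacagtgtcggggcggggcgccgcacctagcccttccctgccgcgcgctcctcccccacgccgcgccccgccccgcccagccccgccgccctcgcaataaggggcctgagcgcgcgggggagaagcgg
DIPK1B: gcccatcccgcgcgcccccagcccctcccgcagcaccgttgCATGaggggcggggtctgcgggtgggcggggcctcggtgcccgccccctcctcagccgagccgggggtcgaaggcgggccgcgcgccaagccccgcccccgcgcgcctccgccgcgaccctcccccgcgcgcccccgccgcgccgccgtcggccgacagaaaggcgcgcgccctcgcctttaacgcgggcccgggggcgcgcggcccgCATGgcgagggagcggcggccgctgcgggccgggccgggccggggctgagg
GATC, which reads the same on both strands, was found in 0 of these 4 sequences, while 41.7% of all 35116 RefSeq promoters of this length hold it. CATG occurs at 2 places in EGFL7 entry 1 and at 2 in DIPK1B, in 0 places in the others, and in 54.9% of all promoters. GTAC, the site of the enzyme CviQI, is in none of the 4 and in 29.8% of all. Their GC content is 65.7% for both EGFL7 entries, 77.3% for AGPAT2 and 84.3% for DIPK1B, against a median of 58.7% over all promoters. A match or its absence describes these letters alone.

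Some facts of the whole series bear on each value below. Libraries held 1437870 to 8008761 reads on chromosome 9, of which 31.4% to 98.6% lay within 5 kb of the viewpoint. At each viewpoint the share within this 5-kb mask was lower in both WT libraries than in every mutant library. At S4, for example, it was 32.1% and 31.4% in WT and 56.8% to 90.9% in the mutants. Reads within 500 kb of the viewpoint and outside that mask are called near-cis, and they numbered 64583 to 2691302 per library. They made up 66.7% to 73.4% of the chromosome 9 reads outside the mask in the 6 WT libraries and 81.6% to 89.9% in the 24 mutant libraries, so that WT stood apart from every mutant. For this reason shares are given of near-cis reads and of all chromosome 9 reads outside the mask, and mutants are also set against each other. Over near-cis ends with at least 10 reads, the 2 libraries of each genotype differed by more than sampling noise at each viewpoint (chi-square per degree of freedom 1.29 to 30.9), so both were counted. Over the interval's ends alone, the 2 WT libraries at the promoter did not differ beyond sampling noise (1.04, chi-square p = 0.31). The other pairs gave 1.32 to 11.4 there. What the 2 libraries share beyond the genotype is not stated, and p-values measure only how far these libraries spread, which may be a technical spread.

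From the NOTCH1 promoter, which lies 81.7 to 181.7 kb away, the interval took 11.4% and 11.5% of near-cis reads in the 2 WT libraries. It took 9.99% and 9.92% in the S2 mutant and 7.97% and 8.04% in the S4 mutant. The S4-S5 mutant held 11.0% and 11.0%, and the S5 mutant 11.8% and 11.8%. The S4 mutant was lowest and the S5 mutant highest, and no 2 genotypes overlapped. As a share of chromosome 9 reads outside the mask, WT held 7.64% and 7.67%, the S2 mutant 8.38% and 8.34%, the S4 mutant 6.61% and 6.68%, the S5 mutant 10.1% and 10.1%, and the S4-S5 mutant 9.08% and 9.09%. The S4 mutant was the lowest on this scale too, whereas the S2 and S4-S5 mutants, which lay below WT on the near-cis scale, lay above it. The genotypes differed on either scale by an exact permutation test of the F statistic over 945 partings of the 10 libraries (p = 0.00106, the smallest possible, and 0.00159 after Benjamini-Hochberg adjustment over 18 tests). The 4 mutants without WT differed too (exact p = 0.00952, the smallest of 105 partings).

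From S2, 139.1 to 239.1 kb away on the other side of NOTCH1, the interval took a larger part of the reads. WT held 20.1% and 20.1% of near-cis reads, the S2 mutant 11.2% and 10.9%, the S4 mutant 15.1% and 15.0%, the S5 mutant 18.5% and 18.1%, and the S4-S5 mutant 21.9% and 21.3%. The S2 mutant was lowest and the S4-S5 mutant highest, with no overlap between genotypes. As a share of chromosome 9 reads outside the mask the values were 14.1% and 14.0% in WT, 9.11% and 8.92% in the S2 mutant, and 13.2% and 13.1% in the S4 mutant, while the S4-S5 mutant held 18.9% and 18.5% and the S5 mutant 16.2% and 16.0%. The order of the genotypes changed in 1 respect, the S5 mutant passing from below WT to above it. The exact permutation test of the 5 genotypes again reached its smallest p (0.00106) on both scales, as did that of the 4 mutants (0.00952).

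From S4, whose viewpoint lies 1.26 kb before the interval, WT held 20.8% and 20.9% of near-cis reads in it. The S2 mutant held 22.2% and 22.4%, the S4 mutant 19.0% and 19.0%, the S5 mutant 23.3% and 23.4%, and the S4-S5 mutant 21.4% and 21.7%. The S4 mutant was again the lowest and the S5 mutant the highest. As a share of chromosome 9 reads outside the mask, WT was the lowest at 15.3% and 15.3%, and the mutants ran from 16.8% in the S4 mutant to 21.0% in the S5 mutant. The exact permutation tests gave the same p-values as at the other viewpoints (0.00106 over 5 genotypes and 0.00952 over 4 mutants).

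**Figure D1:**
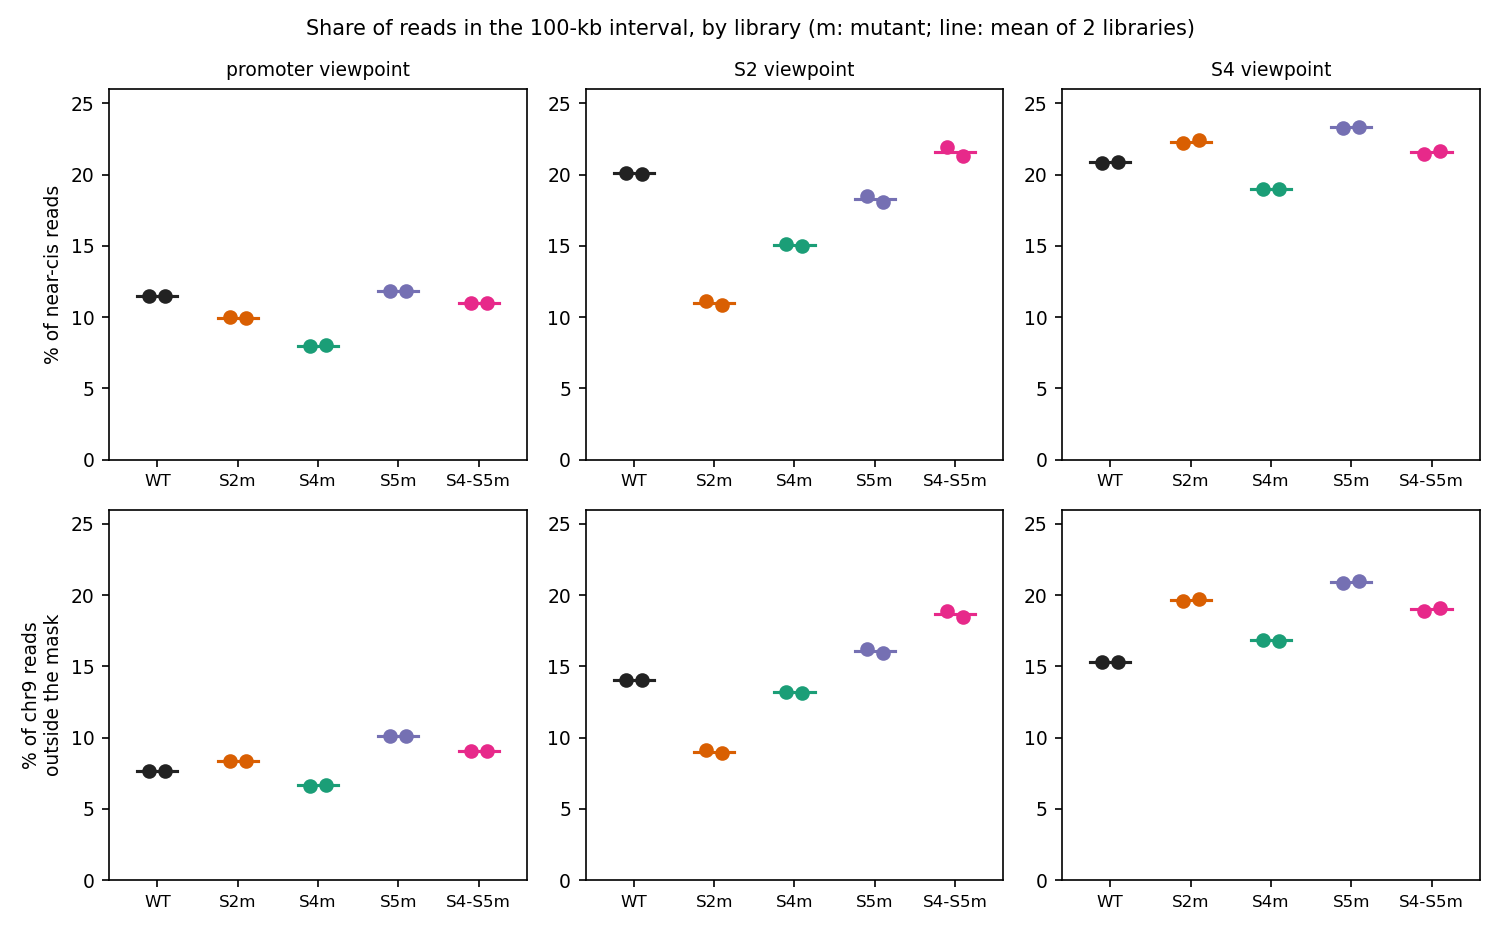
Share of reads that fell in the interval, in % of near-cis reads (upper row) and in % of chromosome 9 reads outside the 5-kb mask (lower row), for each library (points) and as the mean of 2 libraries (lines), at the 3 viewpoints. In both rows the S4 mutant is the lowest of all genotypes at the promoter and the lowest mutant at S4, and the S2 mutant is the lowest at S2, where its near-cis share is 11.2% and 10.9% against 20.1% in WT.

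The interval takes 10.6%, 11.0% and 10.1% of the near-cis fragment ends of the promoter, S2 and S4 tables. Per fragment end, its mean count in WT was 1.08 times the near-cis mean at the promoter, 1.82 times at S2 and 2.07 times at S4. In the S4 mutant the same ratio was 0.75 and 0.76 in the 2 libraries at the promoter, with means of 1.37 for S2 and 1.88 for S4. In the S2 mutant the means were 0.94, 1.00 and 2.21 at the promoter, S2 and S4. Over the 5 genotypes, the near-cis share of the interval was higher at S2 than at the promoter by 0.69 on the log2 scale, in 5 of 5 genotypes, and higher at S4 than at the promoter by 1.05, in 5 of 5 (two-sided exact permutation of the viewpoint within genotypes, p = 0.000257, the smallest possible, adjusted 0.000386 over 3 pairs). The advantage of S2 over the promoter was 0.81 in WT, 0.91 in the S4 mutant and 0.15 in the S2 mutant. S4 exceeded S2 by 0.35 on average (exact p = 0.00103), by 0.05 in WT and by 1.02 in the S2 mutant, while the S4-S5 mutant showed a log2 difference of -0.00. With a mask of 20 kb this last comparison reversed to -0.44, since that mask removes the part of the interval nearest to S4.

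To set each mutant against WT, near-cis reads were summed in 100-kb tiles laid so that the interval is 1 tile, and tested with edgeR's quasi-likelihood test with near-cis totals as library sizes. The interval was called in all 12 comparisons of a mutant with WT, which share their WT libraries. So were most other tiles: at the promoter 90.9% of the 11 tiles were called for the S2 mutant, 90.9% for the S4 mutant and 100% for the S5 and S4-S5 mutants. At S2 the share was 81.8%, 90.9%, 100% and 100% in the same order, and at S4 it was 90%, 80%, 100% and 100% of 10 tiles. A call by itself therefore says little about the interval, and the sizes carry the comparison.

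At the promoter, the log2 fold of the interval was -0.21 ± 0.014 (SE) in the S2 mutant, -0.52 ± 0.0099 in the S4 mutant, -0.07 ± 0.0039 in the S4-S5 mutant and 0.04 ± 0.010 in the S5 mutant. At S2 it was -0.87 ± 0.018 in the S2 mutant, -0.42 ± 0.018 in the S4 mutant, 0.11 ± 0.018 in the S4-S5 mutant and -0.14 ± 0.018 in the S5 mutant. At S4 the S2 mutant stood at 0.10 ± 0.026, the S4 mutant at -0.14 ± 0.0086, the S5 mutant at 0.16 ± 0.013 and the S4-S5 mutant at 0.05 ± 0.0062. The S2 and S4 mutants thus showed the deepest falls, each at a viewpoint other than S4. That of the S2 mutant was seen from S2, the site mutated in it, and its fold from the promoter was -0.21. The edgeR adjusted p-values ran from 1.91e-11 for the S4 mutant at the promoter to 0.00949 for the S2 mutant at S4. The S2 mutant at S4 was not called without WT replicate 2 or without either of its own libraries (folds of 0.10, 0.10 and 0.09), nor the S5 mutant at the promoter without its replicate 1 (0.04).

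The direction depended on the scale in 6 of the 12 comparisons. Scaling to chromosome 9 totals, to TMM factors or to DESeq2's size factors moved the median log2 fold of all 10-kb bins upward by 0.23 to 0.36, by 0.30 to 0.71 and by 0.35 to 1.10, and it moved the interval with it. The S4 mutant at the promoter stayed below WT on all 4 scales, with -0.52 by near-cis totals, -0.20 by chromosome 9 totals, -0.21 by TMM and -0.05 by DESeq2, and was at -0.44 against the other 3 mutants. The S5 mutant at the promoter lay above WT on all 4 (0.04, 0.40, 0.44 and 0.60) and at 0.31 against the other mutants. At S2 the S4-S5 mutant lay above on all 4 (0.11, 0.41, 0.65 and 0.61) and at 0.58 against the other mutants. At S4 this held for the S2 mutant (0.10, 0.36, 0.75 and 1.10), the S5 mutant (0.16, 0.45, 0.52 and 0.62) and the S4-S5 mutant (0.05, 0.31, 0.39 and 0.40), with 0.07, 0.16 and 0.01 against the other mutants. For the S2 mutant at S2, the fold of -0.87 by near-cis totals was -0.64 by chromosome 9 totals, -0.15 by TMM, -0.72 against the other mutants and 0.23 by DESeq2. For the S4 mutant at S2, -0.42 was -0.09, -0.08, -0.12 and 0.01 in that order. The other 4 comparisons changed direction already under chromosome 9 totals. They were the S2 and S4-S5 mutants at the promoter (0.13 and 0.25), the S5 mutant at S2 (0.20) and the S4 mutant at S4 (0.14).

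**Figure D2:**
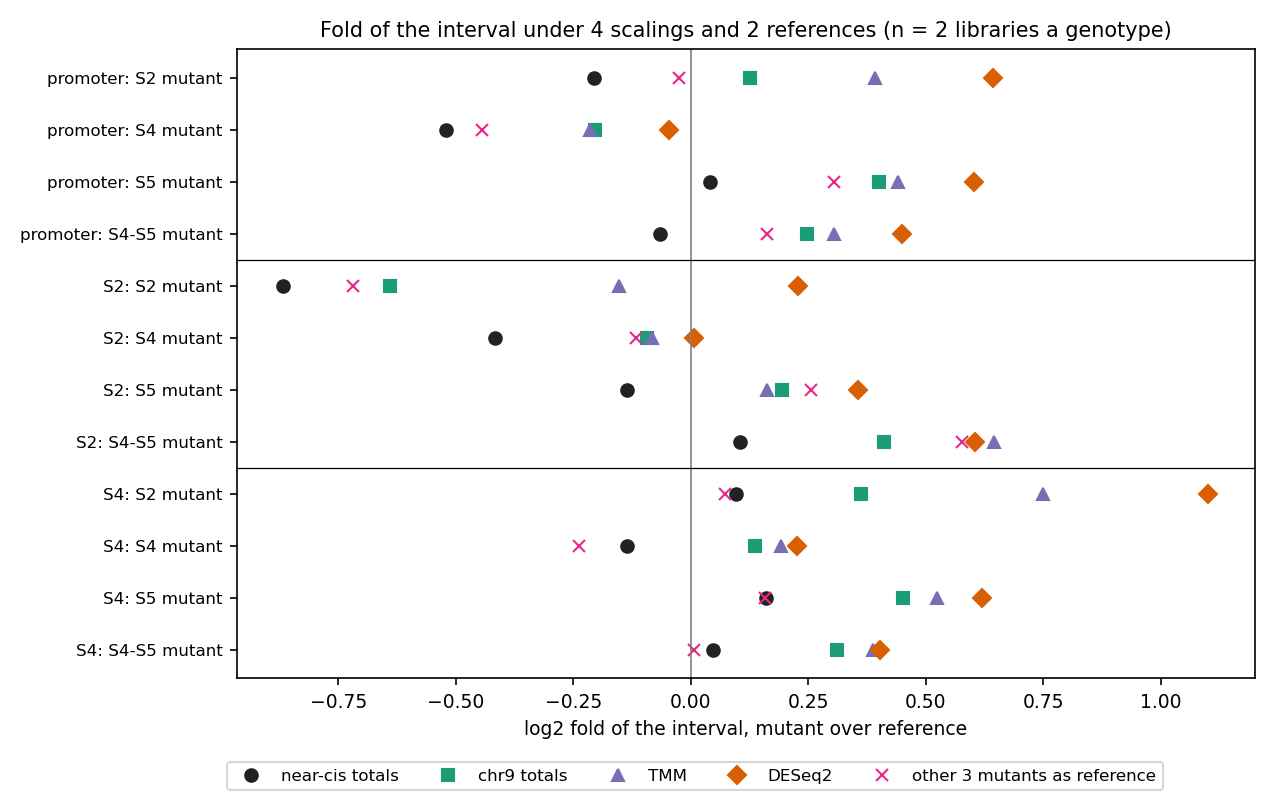
Log2 fold of the interval's reads, mutant over reference, for each viewpoint and mutant (rows). Circles, squares, triangles and diamonds use WT as reference and 4 scalings, and crosses use the other 3 mutants with near-cis totals. The points of a row fall on both sides of 0 in 6 of 12 rows. At the promoter those of the S4 mutant are all below 0, the nearest at -0.046, and those of the S5 mutant are all at or above 0.04.

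Set against the rest of the near-cis window, which no scaling changes, the interval lay above the median tile in 9 of 12 comparisons and below it in 3. The 3 were the S2 mutant at S2, with -0.87 against a median of -0.23, the S4 mutant at S2, with -0.42 against -0.39, and the S4 mutant at S4, with -0.14 against -0.06. In the S5 mutant at the promoter, the interval's 0.04 stood against a median of -0.67, and it ranked 3 of 11 tiles by fold. In the S4-S5 mutant, 0.11 at S2 stood against -0.49 and ranked 2 of 11. The S4 mutant at the promoter, at -0.52, was close to the median of -0.54 and ranked 4 of 11. The S2 mutant at S2 ranked 9 of 11.

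The adjoining 100 kb toward the telomere, chr9:139625001-139725000, give a ratio that does not depend on the library total. In WT the interval held more reads than this neighbour by a log2 ratio of 1.58 and 1.58 at the promoter, 1.96 and 1.96 at S2, and 2.37 and 2.39 at S4. In the S4-S5 mutant the ratio was 2.06 and 2.09 at the promoter, 2.96 and 2.96 at S2, and 2.87 and 2.86 at S4, the highest of the 5 genotypes at each viewpoint. Across the mutants, 24 of 24 libraries lay above both WT libraries of their viewpoint. The mutants of a viewpoint share these 2 WT libraries, and no other pair of adjoining tiles was scored in this way. Whether the count is particular to the interval was therefore not tested. The rise over WT was smallest in the S4 mutant at the promoter (1.60 and 1.61) and in the S2 mutant at S2 (2.04 and 2.03). Genotypes differed at each viewpoint by the exact permutation test (p = 0.00317 at the promoter and 0.00106 at both S2 and S4).

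The neighbour itself held 3.83% of near-cis reads in WT and 2.60% in the S4-S5 mutant at the promoter (means of 2 libraries), 5.17% and 2.78% at S2, and 4.00% and 2.96% at S4. Which of the pair moved in the S4-S5 mutant depended on the scale. By near-cis totals the log2 fold was -0.56, -0.90 and -0.43 for the neighbour and -0.07, 0.11 and 0.05 for the interval at the promoter, S2 and S4. By DESeq2 scaling it was -0.04, -0.40 and -0.08 for the neighbour and 0.45, 0.61 and 0.40 for the interval. The count of 24 was 22 with non-blind ends alone, 22 with capped fragment ends, and 21 with a mask of 20 kb or with covered ends in place of reads, a setting added after the data were seen. The libraries that then fell below both WT libraries, 2 in each setting, were those of the S2 mutant, except with covered ends, where they were those of the S4-S5 mutant at the promoter. The S4-S5 mutant stayed the highest genotype at each viewpoint in these settings except with covered ends. There it was highest at no viewpoint, and at the promoter it was the lowest (0.80 against 0.87 in WT and 1.29 in the S2 mutant).

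A second comparison used the 100 kb that end 5 kb short of the S2 viewpoint on the centromeric side, chr9:139280872-139380871, on the far side of NOTCH1 from the interval. In WT, the interval exceeded this stretch slightly at each viewpoint, by a log2 ratio of 0.20 at the promoter and S4 and 0.30 at S2. In the S5 mutant the ratio was 0.93 and 0.94 at the promoter and 0.57 and 0.60 at S4, above WT, and 0.28 and 0.30 at S2, where it was not separate from WT. In the S4-S5 mutant it was 0.82 and 0.86, 0.59 and 0.62, and 0.45 and 0.43 at the promoter, S2 and S4, above WT at each. In the S4 mutant it was below WT at each, with 0.11 and 0.13, -0.36 and -0.35, and -0.16 and -0.17. The S2 mutant lay above WT at the promoter (0.59 and 0.60) and below it at S2 (-0.95 and -0.99) and at S4 (0.01 and 0.01).

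Counted over all ends, the S4 mutant lay below WT at the promoter and at S4, and the S5 and S4-S5 mutants above it. The centromeric stretch took 18.2% of near-cis reads at S4 in WT, 21.3% in the S4 mutant and 15.5% in the S5 mutant, so both stretches moved. Exact permutation p-values over the 5 genotypes were 0.00106 at the promoter and S4 and 0.00212 at S2. These directions depended on the ends counted. With non-blind ends alone, the S4 mutant turned to above WT at S4 (0.30 against 0.25) and stood level with it at the promoter (0.24 against 0.23), where WT was then the lowest. With covered ends in place of reads, the S4-S5 mutant turned to below WT at the promoter (0.03 against 0.08) and at S4 (-0.26 against -0.24).

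**Figure D3:**
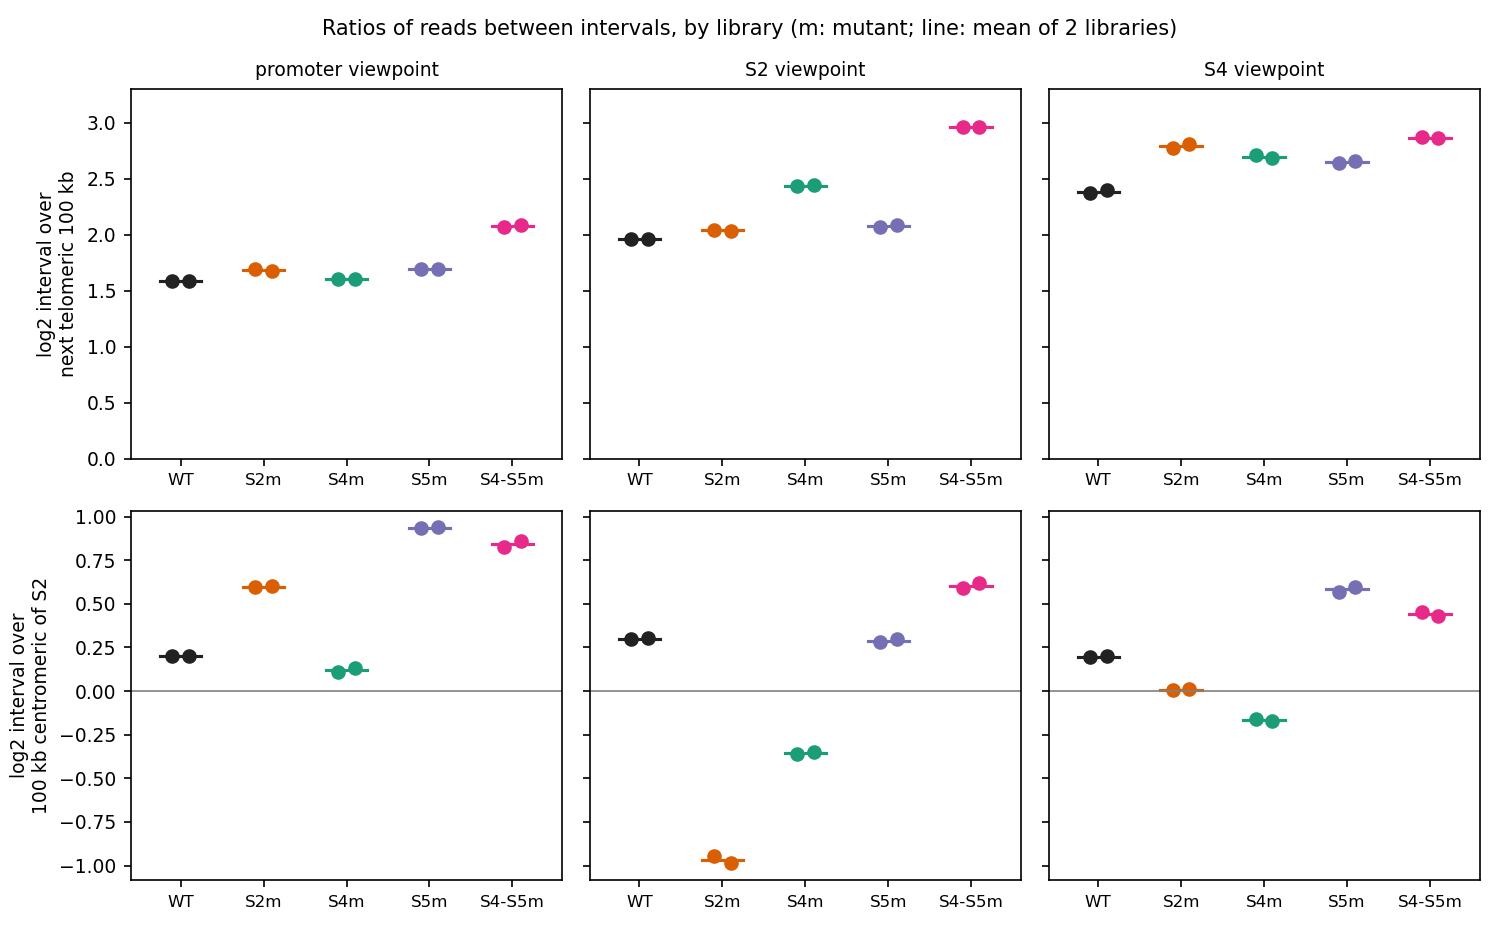
Log2 ratio of reads in the interval to reads in the next 100 kb toward the telomere (upper row) and to reads in the 100 kb on the centromeric side of S2 (lower row), for each library (points) and as the mean of 2 libraries (lines). In the upper row WT is the lowest and the S4-S5 mutant the highest at each viewpoint; in the lower row the S4 mutant lies below WT and the S4-S5 mutant above it at each viewpoint.

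Along the interval, reads were summed in 10 bins of 10 kb, numbered from S4 outward, so that bin 1 is chr9:139525001-139535000 and bin 10 is chr9:139615001-139625000. A bin holds 20 to 53 fragment ends, by bin and viewpoint, and the sums were not divided by that number. The order of bins below is thus one of summed reads, not of reads per end. From S4 and S2, WT reads were highest in bin 1, which took 4.16% and 3.90% of near-cis reads at S4 and 5.68% and 5.66% at S2. From the promoter they were spread more evenly, with the highest WT mean in bin 7 (1.59%) and 1.33% in bin 1. Bin 9, chr9:139605001-139615000, was the lowest in WT at all 3 viewpoints, with 0.535%, 0.242% and 0.434% (means of 2 libraries). The WT ratio of the highest to the lowest bin was 2.98 at the promoter, 9.30 at S4 and 23.5 at S2. The WT profiles over the 10 bins correlated with r = 0.82 between S2 and S4, 0.69 between the promoter and S4, and 0.33 between the promoter and S2. The points are neighbouring bins of the same libraries, so these values are a description.

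Bins 5 to 8, between 46.3 and 76.3 kb from S4 by their centres, formed a second stretch of high summed reads from S2 in WT, at 2.15%, 2.29%, 2.40% and 2.39%. These bins hold 29, 26, 42 and 53 fragment ends in the S2 tables. Bins 5 and 6 held more reads on fewer ends than bin 2 (1.87% on 36 ends) and bin 4 (0.570% on 30 ends). Their reads per end were thus above those of bins 2 and 4. Bins 7 and 8 rest on more ends, so their sums alone do not show high reads per end. From S4 the same bins held 2.68%, 1.38%, 2.64% and 2.12%, and from the promoter 1.30%, 0.798%, 1.59% and 1.19%. Beyond bin 8 the counts dropped at each viewpoint. The nearer 50 kb held 56.6% of the interval's reads in WT at the promoter, 65.1% at S4 and 58.7% at S2.

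**Figure D4:**
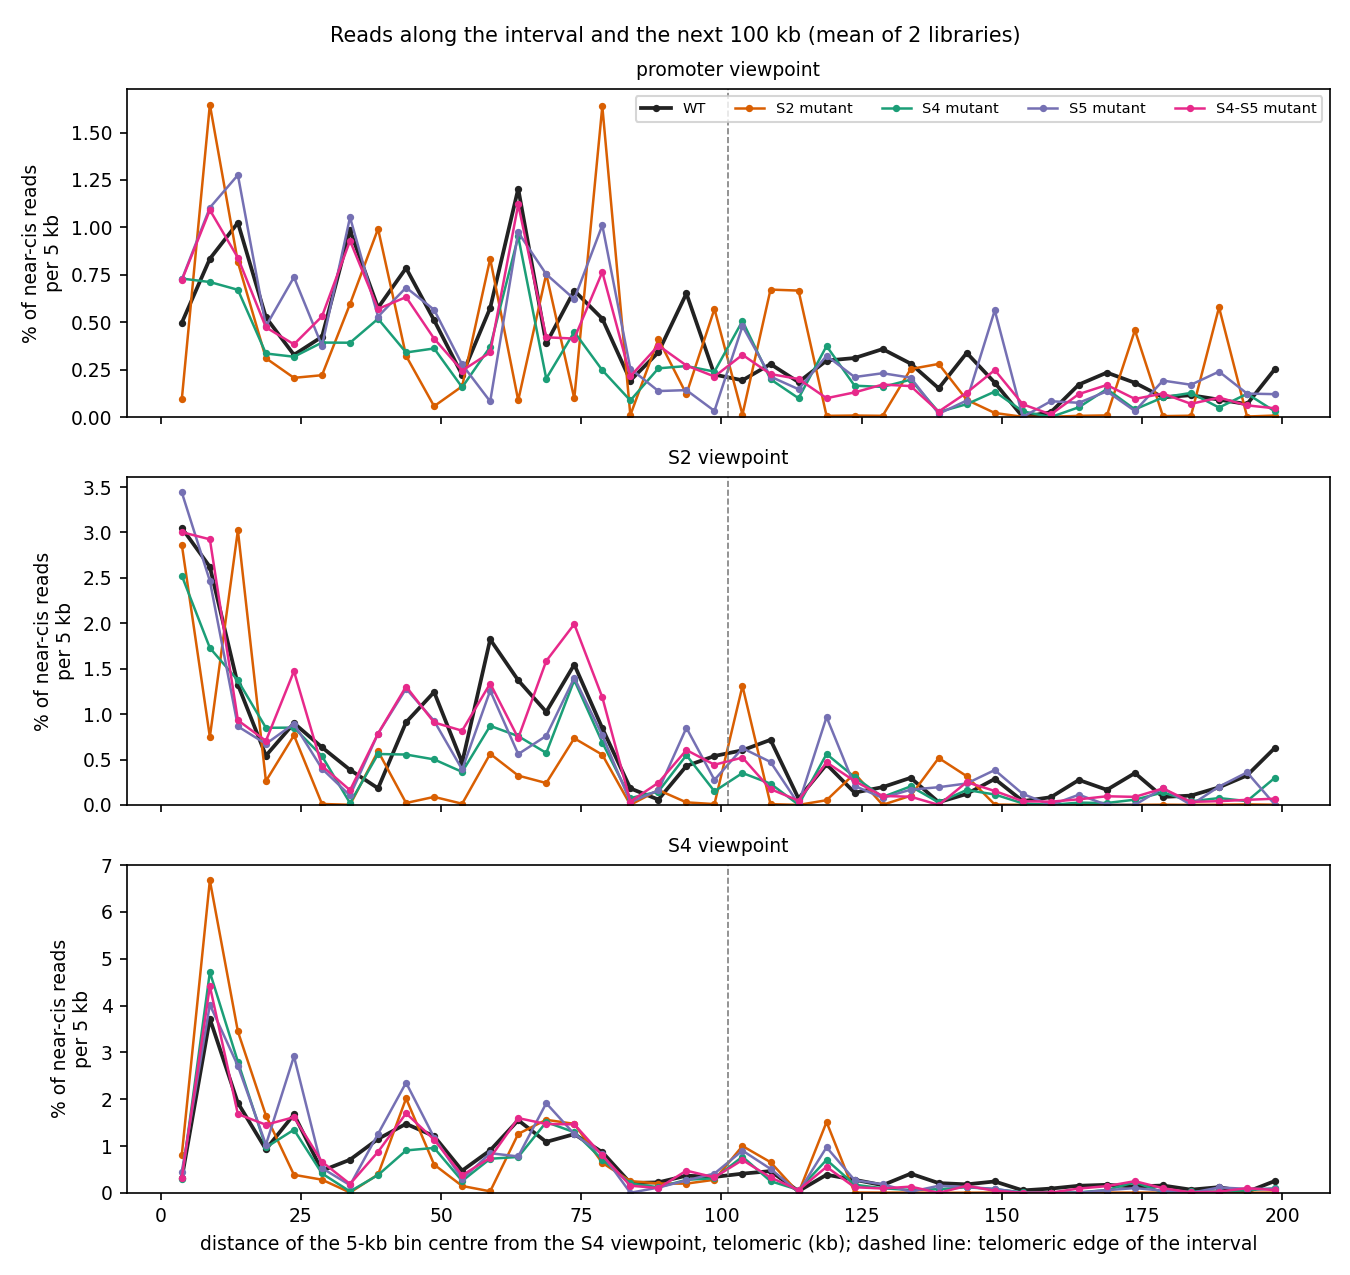
Reads per 5-kb bin in % of near-cis reads (mean of 2 libraries) against the distance of the bin centre from the S4 viewpoint in kb, for WT and the 4 mutants at the 3 viewpoints; the dashed line is the telomeric edge of the interval, and part of the first bin is masked at S4. From S2 and S4 the counts are highest within the first 20 kb of S4, and drop shortly before the dashed line, and the S2 mutant alternates between peaks and bins near 0.

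Of the 120 tests of a member bin in a mutant against WT, 96 were called by edgeR with near-cis totals, 34 higher and 62 lower. Of these, 13 were at least 2-fold, all of them lower. Rises of at least 2-fold did occur on other scales. In the S2 mutant at S4, bins 1 and 2 stood at log2 folds of 1.16 and 1.10 with chromosome 9 totals, and at 1.90 and 1.84 with DESeq2. At the promoter the S2 mutant had 9 of 10 bins called, 3 higher and 6 lower, where 93.8% of the 96 near-cis bins were called, and 1 was at least 2-fold, where 57.3% were. The S4 mutant had 10 called, 1 higher and 9 lower (85.4% of all bins), with 0 at least 2-fold (25% of all). The S5 mutant had 8 called, 5 higher and 3 lower (91.7% of all), 2 of them at least 2-fold (40.6% of all). The S4-S5 mutant had 7 called, 3 higher and 4 lower (92.7% of all), with 0 at least 2-fold (30.2% of all).

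At S2 the S2 mutant had 9 bins called, 1 higher and 8 lower (88.5% of all bins), and 4 at least 2-fold (57.3% of all). The S4 mutant had 8, 1 higher and 7 lower (84.4% of all), and 1 at least 2-fold (37.5% of all). The S5 mutant had 7, 1 higher and 6 lower (83.3% of all), and 0 at least 2-fold (36.5% of all). The S4-S5 mutant had 4, 3 higher and 1 lower (71.9% of all), and 0 at least 2-fold (35.4% of all). At S4 the S2 mutant had 7, 3 higher and 4 lower (92.7% of all), and 3 at least 2-fold (56.2% of all). The S4 mutant had 10, 2 higher and 8 lower (91.7% of all), and 1 at least 2-fold (34.4% of all). The S5 mutant had 7, 4 higher and 3 lower (88.5% of all), and 1 at least 2-fold (32.3% of all). The S4-S5 mutant had 10, 7 higher and 3 lower (94.8% of all), and 0 at least 2-fold (34.4% of all). By near-cis totals, the interval's share of bins called lay on both sides of the background, and its share of 2-fold changes was below the background in all 12. Shares of 2-fold changes were not counted on the other scales.

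These splits into higher and lower bins moved with the scale. With chromosome 9 totals, the promoter splits were 4 higher and 4 lower in the S2 mutant, 2 and 8 in the S4 mutant, 7 and 2 in the S5 mutant, and 7 and 2 in the S4-S5 mutant. At S2 they were 2 and 8, 4 and 4, 6 and 2, and 10 and 0 in the same order, and S4 gave 6 higher and 4 lower, 3 and 4, 7 and 2, and 7 and 2. With DESeq2's size factors the promoter splits were 7 and 1, 2 and 7, 7 and 2, and 8 and 1. For S2 DESeq2 gave 5 higher and 4 lower, 5 and 3, 7 and 1, and 10 and 0, and for S4 it gave 7 higher and 3 lower, 5 and 3, 8 and 1, and 7 and 2. TMM factors gave 7 higher and 3 lower, 2 and 8, 7 and 2, and 7 and 1 for the promoter. For S2 TMM gave 2 higher and 6 lower, 4 and 4, 5 and 2, and 10 and 0, and for S4 it gave 6 higher and 3 lower, 4 and 3, 8 and 1, and 7 and 2. Over all near-cis bins, by near-cis totals, lower calls outnumbered higher ones in all 12 comparisons, for example by 62 to 20 in the S4 mutant at the promoter and by 50 to 19 in the S4-S5 mutant at S2.

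The median member bin lay above the median near-cis bin in 9 of 12 comparisons. At the promoter the median log2 fold of the 10 bins was -0.34, -0.63, 0.07 and -0.05 in the order S2, S4, S5 and S4-S5 mutant, against -0.79, -0.50, -0.69 and -0.45 over all bins. At S2 it was -0.94, -0.31, -0.19 and 0.09 against -0.92, -0.31, -0.31 and -0.25. At S4 it was -0.02, -0.27, -0.00 and 0.09 against -0.78, -0.45, -0.37 and -0.47.

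Bin 1, next to S4, was called higher than WT in 4 of 4 mutants at the promoter, with log2 folds of 0.11 to 0.45, and in 4 of 4 at S4, with 0.15 to 0.89. Both counts were also 4 of 4 under chromosome 9, TMM and DESeq2 scaling. At S4 part of bin 1 is masked. In replicate 1 its leading end held 27.5% to 44.0% of its reads there in the mutants and 19.4% in WT. In the S4 mutant, chr9:139532550 rose by more than bin 1 did, from 0.787% to 2.22% against 4.03% to 5.00% (means). So did chr9:139533115 in the S5 mutant, from a mean of 0.453% to 1.66% and 1.58%, against 4.03% to 4.47% for bin 1. The S2 and S4-S5 mutants showed a larger rise in bin 1 than in its leading end. By near-cis totals, 20 to 27 of the 96 near-cis bins were called higher in a mutant at the promoter, and 24 to 30 at S4. The 4 mutants share 2 WT libraries per viewpoint. Bins called one way in all 4 mutants were not counted over the window. At S2 bin 1 was called lower in 2 mutants and higher in 0, with folds of -0.65 to 0.06, but this moved with the scale: 2 lower and 2 higher with chromosome 9 totals, 1 and 2 with TMM factors, and 0 and 3 with DESeq2. From the promoter, bin 1 rose from 1.31% and 1.36% in WT to 1.84% and 1.79% in the S4-S5 mutant, and from S4 it rose from 4.16% and 3.90% to 7.38% and 7.60% in the S2 mutant. Against the other 3 mutants, bin 1 stood at -0.31 in the S4 mutant at the promoter and at -0.22 in the S4-S5 mutant at S4. Bin 2 was called higher in 4 of 4 mutants at S4 (0.14 to 0.84), also on the other 3 scales. In replicate 1 a single end held 33.2% to 43.6% of that bin's reads in the mutants, against 11.0% in WT.

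Bin 10, at the telomeric edge, was called lower in 4 of 4 mutants at the promoter, with folds of -2.32 to -0.34. On the other 3 scales it was called lower in 3 of 4, the S2 mutant standing at -0.0080 with chromosome 9 totals, 0.26 with TMM factors and 0.51 with DESeq2. Bin 10 held 0.880% and 0.872% there in WT, 0.176% and 0.174% in the S5 mutant, and 0.492% and 0.480% in the S4-S5 mutant. From S2, bin 10 fell by 4.66 in the S2 mutant, from 1.00% and 0.933% to 0.0460% and 0.0310%, and the S5 mutant there showed a log2 fold of 0.22 that was not called. From S4, bins 4 and 6 were called lower in 4 of 4 mutants, with folds of -2.22 to -0.38 for bin 4 and of -2.95 to -0.28 for bin 6. Neither count held on every scale. Bin 4 was called lower in 4 mutants with chromosome 9 totals but in 3 with TMM factors or DESeq2, where the S5 mutant stood at -0.02 and 0.07. Bin 6 was called lower in 2 on each of the other 3 scales, the S5 mutant standing at 0.01, 0.09 and 0.18 and the S4-S5 mutant at -0.04, 0.04 and 0.06. Bin 4, chr9:139555001-139565000, held 1.90% and 1.81% in WT at S4, 0.417% and 0.405% in the S4 mutant and 1.08% and 1.05% in the S4-S5 mutant. Bin 6, chr9:139575001-139585000, held 1.36% and 1.41% in WT and 0.183% and 0.174% in the S2 mutant. Seen from S2, the same bin 4 was called higher in both the S5 (0.64) and the S4-S5 mutant (0.74). In the latter it rose from 0.560% and 0.580% to 0.913% and 0.985%. A single end held 82.9% (S5) and 57.8% (S4-S5) of the bin's reads in replicate 1, against 19.3% for WT. Of its 30 ends, 11 and 10 were covered in these libraries, against 22 for WT. Whether the rise goes beyond the leading end was not tested. Lower calls were common in the whole window: by near-cis totals, 62 to 69 of the 96 near-cis bins in a mutant at the promoter and 58 to 67 at S4.

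Among the other largest changes at the promoter, the S2 mutant rose in bin 8 by 0.55 and fell by 1.77 in bin 5, and the S4 mutant fell by 0.88 in bin 5. The S5 mutant rose in bin 3 by 0.56. From S2, the S2 mutant rose in bin 2 by 0.82, from 1.85% and 1.89% to 3.44% and 3.13%. A single end, chr9:139537431, held 71.2% of that bin's reads in replicate 1 of the mutant. This end rose by more than the bin, from a WT mean of 0.302% to 2.45% and 2.19%. The S4 mutant rose in bin 2 by 0.25 and fell by 1.03 in bin 5, the S5 mutant fell by 0.86 in bin 7, and the S4-S5 mutant fell by 0.19 in bin 2. That last bin lay above WT under chromosome 9, TMM and DESeq2 scaling (0.12, 0.35 and 0.31). From S4, the S4 mutant rose in bin 2 by 0.40, and the S5 mutant rose in bin 3 by 0.68 and fell by 1.93 in bin 9.

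**Figure D5:**
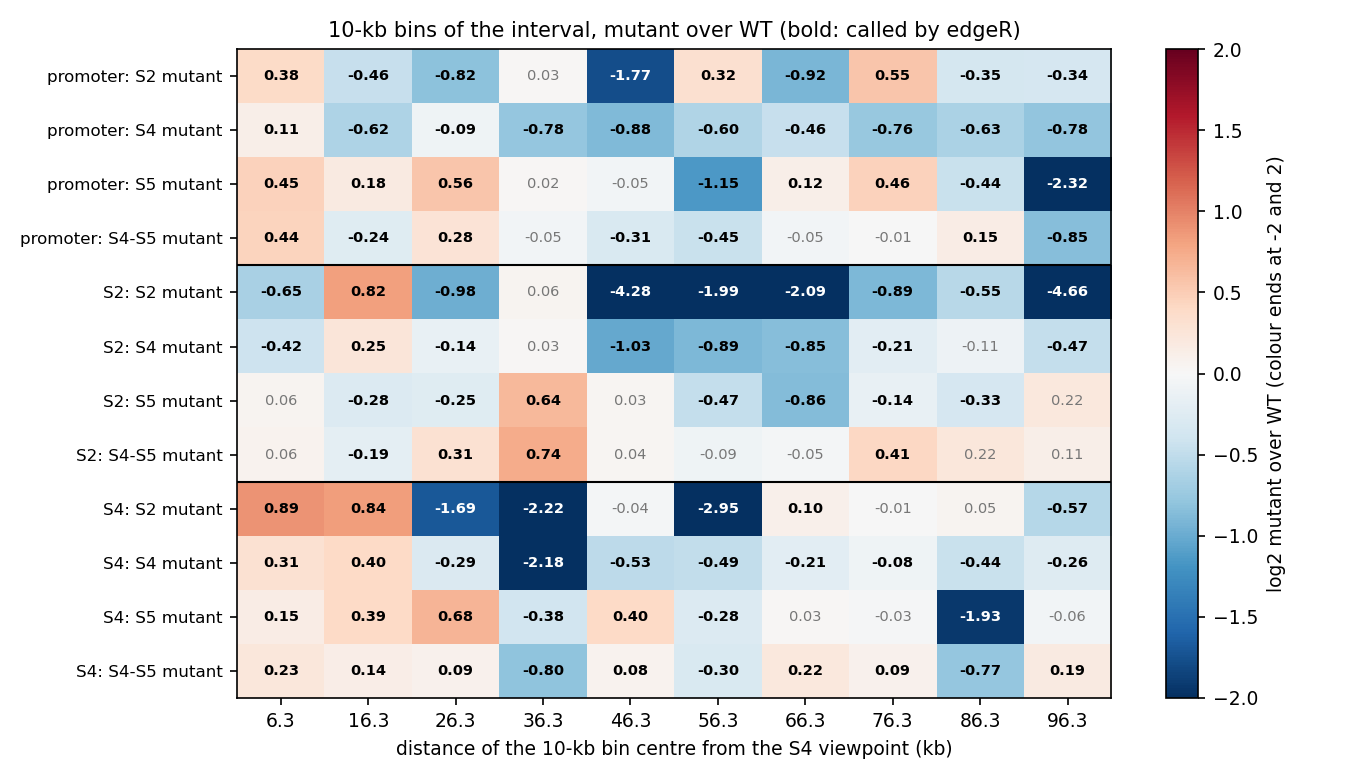
Log2 fold over WT (near-cis totals) of the 10 member bins, by distance of the bin centre from the S4 viewpoint in kb, for each viewpoint and mutant; bold values were called by edgeR, and the colour scale ends at -2 and 2. The first bin is higher in all 4 mutants at the promoter and at S4, and the lowest values are -4.66 and -4.28, both in the S2 mutant at S2.

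The changes were not even along the interval. In the S2 mutant at S2, the farther 50 kb held 2.65% and 2.61% of near-cis reads against 8.29% and 8.29% in WT, while the nearer 50 kb held 8.38% against 11.8% (means). There the nearer 50 kb made up 76.1% of the interval's reads, against 58.7% in WT. The median read of the interval lay 13.7 kb from S4 in the S2 mutant at S2, 27.6 kb in the S4 mutant, 39.6 kb in the S5 mutant and 43.6 kb in WT and in the S4-S5 mutant. From S4 it lay at 18.5 kb in the S2 mutant, 23.2 and 23.4 kb in the S4 mutant, and 38.7 and 39.6 kb in WT. In the S5 mutant it lay at 30.8 and 32.1 kb. In 20 of 24 mutant libraries over the 3 viewpoints the median read lay closer to S4 than in both WT libraries, the exceptions being the S4-S5 mutant at S2 and at S4, and at the promoter the medians ran from 37.8 kb in the S5 mutant to 44.9 kb in WT.

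Single fragment ends also differed between genotypes. At the promoter, the leading end of the S2 mutant made up 9.41% of the interval's reads, and that of WT and the other mutants 2.42% to 3.13%. At the promoter, the WT end with most reads was chr9:139566650, with 0.355% and 0.364% of near-cis reads. It held 0.0371% and 0.0391% in the S4-S5 mutant and at most 0.00436% in any library of the S2, S4 and S5 mutants. The next end in WT, chr9:139561555, held 0.325% and 0.321% in WT, 0.259% and 0.272% in the S5 mutant and 0.0108% and 0.00872% in the S2 mutant. The third, chr9:139533297, held 0.245% and 0.251% in WT, 0.203% and 0.227% in the S4-S5 mutant and 0.00227% and 0.00512% in the S5 mutant. The first of these ends was far below WT in all 4 mutants, while the second and the third kept most of their WT level in some mutants and were almost empty in others.

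From S2 the leading WT end was chr9:139525708, 1.96 kb from the S4 viewpoint, with 0.945% and 0.892%. It also led in the S4 mutant (1.06% and 1.05%), the S4-S5 mutant (1.41% and 1.33%) and the S5 mutant (1.89% and 1.81%), and ranked 5 in the S2 mutant (0.603% and 0.605%). The leading end of the S2 mutant was chr9:139537431, with 2.45% and 2.19%, which is 21.1% of the interval's reads there. The WT mean at that end was 0.302%. The second WT end, chr9:139584394, held 0.712% and 0.697% in WT, 0.482% and 0.472% in the S4-S5 mutant, 0.223% and 0.231% in the S4 mutant, and under 0.01% in the S2 and S5 mutants. The third, the blind end chr9:139526087, held 0.672% and 0.671% in WT and 0.359% and 0.345% in the S5 mutant.

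From S4 the leading WT end was chr9:139532550, 8.80 kb from the viewpoint, with 0.808% and 0.765%. It held 2.37% and 2.40% in the S2 mutant, 2.19% and 2.25% in the S4 mutant and 1.29% and 1.32% in the S4-S5 mutant, where it also led, and 0.834% and 0.832% in the S5 mutant, where it ranked 6. The second, chr9:139548356, held 0.629% and 0.651% in WT, 1.38% and 1.44% in the S5 mutant and 0.137% and 0.117% in the S2 mutant. The third, chr9:139563304, held 0.587% and 0.674% in WT and 0.195% and 0.182% in the S4 mutant. Of the 20 ends with most reads in WT, 2 were also among the leading 20 of the S2 mutant at the promoter, 4 from S2 and 9 from S4. For the S4 mutant these counts were 5, 9 and 10, for the S5 mutant 5, 7 and 11, and for the S4-S5 mutant 5, 8 and 14.

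The reads of the interval were more concentrated in the mutants at S2 and S4. The 20 leading ends held 38.7% and 38.2% of the interval's reads in WT at S2, and 94.6% and 95.1% in the S2 mutant, while the S4 mutant had 48.4% and 48.2%, the S4-S5 mutant 45.1% and 44.3%, and the S5 mutant 56.9% and 56.1%. At S4 they held 34.7% and 37.1% in WT and 72.9% and 72.9% in the S2 mutant, and at the promoter 33.7% and 33.6% in WT and 77.9% and 77.6% in the S2 mutant. The S2 mutant was the most concentrated at each viewpoint, and the other mutants at the promoter were within 30.2% to 36.1%. From S2, 50% of the interval's reads came from 33 ends in WT and from 4 ends in the S2 mutant.

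To compare coverage at equal depth, the expected share of the interval's ends with a read was computed after thinning each library to the lowest near-cis total of its viewpoint, which was 64583 reads at the promoter, 424277 at S4 and 499045 at S2. At S2 this share was 86.0% and 86.7% in WT and 55.2% to 62.8% in the mutants (means), with the S5 mutant lowest. At S4 it was 84.8% and 84.1% in WT and 63.8% to 68.5% in the mutants. At the promoter it was 75.3% and 74.8% in WT, 75.5% and 76.0% in the S4-S5 mutant, 59.8% and 59.8% in the S4 mutant, 58.6% and 59.3% in the S5 mutant and 52.7% and 55.9% in the S2 mutant. In all, 22 of 24 mutant libraries were below both WT libraries, the exceptions being those of the S4-S5 mutant at the promoter. Over the whole near-cis window, 24 of 24 mutant libraries were below both WT libraries, and at S2 56.9% of ends were covered in WT and 32.6% to 39.2% in the mutants (means), so the drop was not particular to the interval. Genotypes differed by the exact permutation test (p = 0.00106 at the promoter and S2, 0.00423 at S4). The S2 mutant at the promoter rested on the fewest reads, 6450 and 6830 in the interval.

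Within a genotype the 2 libraries gave nearly the same profile over the interval's ends, with r of 0.951 to 0.997 on the log scale of counts over 15 pairs. Between WT and a mutant r was 0.280 to 0.617 over 48 pairs of libraries, and between mutants 0.283 to 0.767 over 72 pairs. At S2 the mutants correlated with each other at 0.596 to 0.722 and with WT at 0.431 to 0.505, and at S4 at 0.678 to 0.767 and 0.537 to 0.617. These pairs share fragment ends and viewpoint, and the values are given as a description. WT libraries held fewer chromosome 9 reads (1437870 to 2326487) than mutant libraries (3500663 to 8008761), and the part of library preparation in the distance between WT and the mutants was not tested.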

How the data were processed

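Per the labels' protocols, K562 cells (10 M) were fixed in 2% formaldehyde for 10 min. After 3 rounds of DpnII digestion and a ligation, NlaIII or CviQI made the second cut before religation; the enzyme of each viewpoint is not stated. A first PCR of 16 cycles started from 200 ng. Reads were 150 bp long and carry no molecular identifiers.

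Per the file headers, the authors deposited, for each library, whole read counts per fragment end of chromosome 9, marked blind or non-blind. The same deposited tables hold a normalized and a smoothed signal, which were not used. The genome build hg19 and deepTools are named in the submitters' processing notes, while aligner and read filters were not given in the sources used here.

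Ends within 5 kb of a viewpoint were masked and reads within 500 kb were summed. Near-cis counts in 10-kb bins (mean of at least 10 reads per library) and 100-kb tiles were tested with edgeR 4.0.16 (R 4.3.3, limma 3.58.1), quasi-likelihood F test, all 10 libraries of a viewpoint in 1 fit, two-sided, Benjamini-Hochberg adjusted over all bins or tiles, threshold 0.05. DESeq2 1.42.0 was an alternative. Shares and ratios were compared by exact permutation of the F statistic (upper tail). Correlations used log2 of the count plus 1. Covered ends at equal depth were computed by formula. The tests were checked on simulated data. Reads at 1 end are not independent ligations, so counting error understates the error.

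The bins named are, for each mutant and viewpoint, those with the largest rise and fall among called bins with no overlap between mutant and WT libraries, the highest in WT and those that moved one way in all 4 mutants, the last chosen after their values were seen. The ends named are the 3 leading in WT and the leading end of a genotype. The members and lists were chosen with earlier results of these data known. Alternatives were the chromosome 9 total, TMM, DESeq2, a 20-kb mask, windows of 250 kb and 1 Mb, 5-kb bins, non-blind ends, counts capped at the 99th percentile, covered ends, other mutants as reference, no filter, each library left out, and a replicate block.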

Additional observations from a re-analysis of the deposited data

Results flagged for a closer look

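In 6 cases a mutant's fold of the interval over WT had opposite signs at a pair of viewpoints, with both mutant libraries beyond both WT libraries in each; none of these differences was tested, and each log2 value rests on near-cis totals. In the S2 mutant the fold was -0.21 at the promoter and 0.10 at S4, a difference of -0.30. In the same mutant it was -0.87 at S2, which lies -0.96 from the value at S4. In the S5 mutant the fold was 0.04 at the promoter and -0.14 at S2, a difference of 0.18, and the S2 value lay -0.30 from the 0.16 at S4. In the S4-S5 mutant the fold of -0.07 at the promoter lay -0.17 from the 0.11 at S2 and -0.11 from the 0.05 at S4. With chromosome 9 totals as library sizes, the S5 and S4-S5 mutants had folds above 0 at each viewpoint, as did the S2 mutant at the promoter and S4, so of these pairs the S2 mutant at S2 (-0.64) and S4 (0.36) kept opposite signs. With DESeq2 scaling this pair had the same sign too (0.23 and 1.10).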

How the results depend on the processing

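The differences among genotypes in the interval's share, in its 2 ratios and in its covered ends, tested by exact permutation, kept their side of the threshold under every alternative run for them. The comparisons of S2 and of S4 with the promoter did too, and that of S4 with S2 reversed to -0.44 with a mask of 20 kb. Folds of the interval over WT (log2, near-cis totals) changed as follows. Under DESeq2 the S2 and S4-S5 mutants at the promoter came to 0.64 and 0.45, the S2, S4 and S5 mutants at S2 to 0.23, 0.0079 and 0.36, and the S4 mutant at S4 to 0.23. Under TMM factors the S2 and S4-S5 mutants at the promoter came to 0.39 and 0.30, the S5 mutant at S2 to 0.16 and the S4 mutant at S4 to 0.19; under chromosome 9 totals the same 4 came to 0.13, 0.25, 0.20 and 0.14. With the other mutants as reference, the S2 mutant at the promoter was no longer called (-0.024), and the S4-S5 mutant at the promoter and the S5 mutant at S2 turned to 0.16 and 0.26. With a mask of 20 kb the S4-S5 mutant at the promoter turned to 0.15 and the S2 mutant at S4 to -0.36. With non-blind ends the S5 mutant at S2 turned to 0.24 and the S4 mutant at S4 to 0.12, and the S2 mutant at S4 was no longer called (0.12). With capped ends the S2 mutant at S4 was no longer called (0.0042). In a window of 250 kb the S5 mutant at the promoter turned to -0.062 and the S4-S5 mutant at S4 to -0.041, and the S4-S5 mutant at S2 was no longer called (0.036); in 1 Mb the S4-S5 mutant at the promoter turned to 0.0070. The cause of these changes was not tested.

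With covered ends in place of reads, no fold was called: in the order S2, S4, S5 and S4-S5 mutant, they were 0.082, -0.0049, 0.10 and 0.018 at the promoter, 0.093, -0.0083, 0.061 and 0.082 at S2, and 0.16, 0.046, 0.18 and 0.14 at S4. In that setting edgeR called 0 of 10 member bins in each of the 12 comparisons, with 1 bin at an unadjusted p under 0.05 for the S2 and for the S5 mutant at S2 and 0 in the others. The bins called for the S4-S5 mutant at S2, 4 in the main setting, were 10 under DESeq2, TMM, chromosome 9 totals, non-blind ends or the other mutants as reference, 7 with capped ends or in 1 Mb, 8 with a mask of 20 kb, and 19 of 20 bins of 5 kb. For the S4-S5 mutant at S4 they fell from 10 to 6 in a window of 250 kb. The other counts of called bins stayed within 1.5 times.

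Among single bins, bin 2 of the S4-S5 mutant at S2 turned to 0.31, 0.35 and 0.12 under DESeq2, TMM and chromosome 9 totals, to 0.24 with non-blind ends and to 0.21 with covered ends, and bin 7 of the S5 mutant at S2 turned to 0.12 with non-blind ends. With covered ends, bins 8 and 5 of the S2 mutant at the promoter came to -0.27 and 0.033, bin 10 of the S4-S5 mutant there to 0.14, bin 10 of the S2 mutant at S2 to 0.14, bin 5 of the S4 mutant at S2 to 0.041, bin 4 of the S5 and S4-S5 mutants at S2 to -0.31 and -0.53, and bin 6 of the S2 mutant at S4 to 0.21. Against the other mutants, bin 1 of the S4 mutant at the promoter came to -0.31, bin 10 of the S4-S5 mutant there to 0.30, bin 5 of the S4 mutant at S2 to 0.38, bin 7 of the S5 mutant at S2 to 0.13, bin 2 of the S4 mutant at S4 to -0.053, and bins 1 and 4 of the S4-S5 mutant at S4 to -0.22 and 0.79.

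Leaving out 1 library kept each direction; the S2 mutant at S4 (0.092 to 0.10) and the S5 mutant at the promoter (0.039 to 0.046) lost their call without some libraries. Of 30 pairs of same-numbered libraries, 15 deviated together over the 10 member bins (r above 0.1, range -0.77 to 0.67). They were 5, 7 and 3 of 10 pairs at the promoter, S2 and S4. The bins are neighbouring parts of 1 total, so this check cannot decide whether the numbers pair libraries. With a replicate block no call of the interval changed (for example -0.52 for the S4 mutant at the promoter). Counts of called bins were then 7 to 10, except 5 for the S4-S5 mutant at S2. Depth limits the S2 mutant at the promoter most, with 64583 and 68827 near-cis reads.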

Other observations

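The first 20 kb beyond the interval, chr9:139625001-139645000, behaved unlike the rest of the neighbouring 100 kb when seen from S4. They held 1.29% and 1.30% of near-cis reads in WT, 3.20% and 3.14% in the S2 mutant, and 1.77% and 1.81% in the S4 mutant. The S4-S5 mutant held 1.63% and 1.66% and the S5 mutant 2.40% and 2.41%, so all 8 mutant libraries were above both WT libraries, while the whole neighbour was below WT in each mutant (4.00% in WT and 2.93% to 3.73% in the mutants, means). From the promoter the same 20 kb held 0.933% and 0.979% in WT, 1.32% and 1.40% in the S2 mutant, and 1.18% and 1.18% in the S4 mutant, while the S4-S5 mutant held 0.863% and 0.849% and the S5 mutant 1.17% and 1.15%. From S2 they held 1.83% and 1.84% in WT, 2.11% and 2.05% in the S5 mutant and 1.13% to 1.39% in the libraries of the S2, S4 and S4-S5 mutants. This stretch was singled out after its values were seen, and no test was run on it.

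The interval was also set against the 100 kb at the same distances on the opposite side of each viewpoint, as a description. From the promoter the log2 ratio of the interval to its mirror was 0.45 in WT, 1.32 in the S2 mutant, 0.56 in the S4 mutant, 1.26 in the S4-S5 mutant and 1.33 in the S5 mutant. From S2 it was 2.89, 2.64, 2.88, 3.87 and 3.51 in the same order, and from S4 it was -0.27, -0.00, -0.43, -0.31 and -0.21.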
